A study of Homo sapiens with 12 samples.

Results

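LFNG, MFNG, RFNG, POFUT1, POGLUT1 and EOGT, 6 genes for enzymes that put sugars on the extracellular part of Notch receptors, were followed across 3 lines of a human endothelial cell line and 2 coatings of the culture dish. They were taken by symbol, as the listed rows of a table of 35587 gene symbols, with no threshold on a measured value in the rule, though the list was drawn up with earlier results of these data known. All 6 had a level of at least 1 TPM (an abundance scaled for transcript length and to a common total per library) in all 12 libraries. The cells were TeloHAEC, aortic endothelial cells immortalised with telomerase. In the TKO line TSPAN14 was targeted with Cas9 and a guide RNA, in the NKO line NOTCH1 was targeted in the same way, and the NT line was the control. TSPAN14 is a tetraspanin that binds ADAM10, a protease of Notch receptors, and NOTCH1 is a receptor of the DLL4 ligand. Each line was plated for 24 h on a dish coated at 2.5 mg/mL with the Notch ligand DLL4 or with IgG, and 2 libraries of polyadenylated RNA were made for each of the 6 combinations. The labels call these libraries biological replicates and give the lines the same passage, and they do not say whether a line is 1 clone or what NT stands for. P-values measure the spread between these libraries, and each edited line stands for its gene only as 1 line does, so an effect of the edited gene and a property of the line cannot be told apart.

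The sugars in question sit on the EGF-like repeats of Notch, short cysteine-rich modules that make up most of the receptor's outer part. POFUT1 adds O-linked fucose to them in the endoplasmic reticulum, and the Fringe enzymes LFNG, MFNG and RFNG extend that fucose with N-acetylglucosamine in the Golgi. POGLUT1 adds O-linked glucose, and EOGT adds a single O-linked N-acetylglucosamine. Fringe extension changes which ligands a receptor answers to: LFNG and MFNG are known to strengthen signalling by Delta-like ligands and to weaken signalling by Jagged ligands, and LFNG is a target of Notch signalling in the segmenting vertebrate embryo. In sprouting vessels of the mouse, Fringe is known to shift the balance between the ligands DLL4 and JAG1.

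In GENCODE 29 on GRCh38, LFNG lies on chromosome 7 from 2512529 to 2529177 on the plus strand, MFNG on chromosome 22 from 37469063 to 37486401 on the minus strand, and RFNG on chromosome 17 from 82047902 to 82051831 on the minus strand. POFUT1 lies on chromosome 20 from 32207880 to 32238667 and POGLUT1 on chromosome 3 from 119468938 to 119494708, both on the plus strand. EOGT lies on chromosome 3 from 68975214 to 69013961 on the minus strand. Each is a protein-coding gene with 5 to 12 annotated transcripts, which the table gives as 1 value per gene. The RefSeq promoter table used here matched LFNG, RFNG, POFUT1 and POGLUT1. LFNG has a pair of promoters in it, shown because LFNG moved with the coating and is known as a Notch target in the embryo. Each runs from 250 bases before to 50 bases after a transcript start on GRCh38.p14, plus strand, with the only match to the core of an RBPJ site in capitals. RBPJ is the DNA-binding partner of the released Notch intracellular domain.
LFNG chr7:2512279-2512578: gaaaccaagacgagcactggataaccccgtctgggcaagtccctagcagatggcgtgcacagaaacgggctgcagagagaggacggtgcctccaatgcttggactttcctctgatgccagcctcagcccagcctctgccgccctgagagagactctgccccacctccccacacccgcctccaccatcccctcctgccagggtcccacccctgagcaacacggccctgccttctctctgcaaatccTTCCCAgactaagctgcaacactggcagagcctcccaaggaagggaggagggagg
LFNG chr7:2517613-2517912: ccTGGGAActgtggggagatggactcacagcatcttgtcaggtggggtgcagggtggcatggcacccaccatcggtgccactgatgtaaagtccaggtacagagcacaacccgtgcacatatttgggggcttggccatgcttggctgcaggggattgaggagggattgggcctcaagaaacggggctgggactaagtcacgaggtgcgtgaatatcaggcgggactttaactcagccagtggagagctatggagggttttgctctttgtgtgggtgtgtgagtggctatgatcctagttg
The core was searched as TGGGAA on both strands. It stands in the first LFNG promoter on the minus strand, read as TTCCCA with its leftmost base at position -5 from the start, and in the second on the plus strand at position -248. Of all 35116 promoters of this length, 24% hold at least 1 such match, so a match is a description of these letters and not a site. POGLUT1 also held a TTCCCA, at position -191, and no match stood in the promoters of RFNG and POFUT1. CACGTG, the palindromic E-box that HES and HEY repressors bind, stood in 7.26% of all promoters and in that of POGLUT1, at position -28, but in neither promoter of LFNG.

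The libraries hold TPM that sum to between 974989 and 977130, and the number of reads behind them is unknown. All 8 endothelial marker genes searched, among them PECAM1, CDH5 and KDR, were measured, with a summed level of 900.2 to 1344 TPM per library. Of 5 leukocyte markers 1 passed the filter on low values, CD14, and their summed level was 6.48 to 10.1 TPM in TKO on DLL4 and 3.01 to 3.63 TPM in TKO on IgG, against 0.560 to 1.86 TPM in the other 8 libraries. The summed level of the epithelial list was 501 to 1194 TPM and came nearly all from KRT8 and KRT18, while the defining markers EPCAM and CDH1 had group means of at most 0.27 TPM. The lymphatic endothelial list of 4 genes parted the lines, with a summed level of 51.6 to 81.3 TPM in TKO and 328 to 604 TPM in NKO, against 207 to 245 TPM in NT. That difference was mostly PDPN, with group means of 7.41 and 12.3 TPM in TKO and 368 and 460 TPM in NKO, against 102 and 174 TPM in NT (on DLL4 and on IgG), while the defining marker PROX1 had group means of at most 0.39 TPM. Only 2 genes of the list were tested. On each coating 1 passed as higher and 1 as lower in NKO than in NT, and 2 passed as lower in TKO. The sum in NKO thus does not stand for the list. The smooth muscle and fibroblast list of 7 genes summed to 41.8 to 86.4 TPM in TKO and 68.9 to 114 TPM in NKO, against 37.2 to 50.8 TPM in NT, mostly from TAGLN and ACTA2, with MYH11 below 1 TPM in every library. The higher sum in NKO was not shared by the list. Of its 3 tested genes, 0 passed as higher and 1 as lower in NKO than in NT on DLL4. On IgG 1 passed as higher and 0 as lower. Their median log2 differences were -0.63 on DLL4 and -0.34 on IgG, where 20.7% and 10.7% of all genes passed. The part of these lists in the results below was not tested. The mRNA of TSPAN14 was still present in TKO, with 113 and 109 TPM on DLL4 and 127 and 148 TPM on IgG, against 186 and 172 TPM in NT on DLL4 and 189 and 218 TPM in NT on IgG. That of NOTCH1 was still present in NKO, with 16.5 and 19.5 TPM on DLL4 and 19.2 and 15.6 TPM on IgG, against 31.5 and 24.7 TPM in NT on DLL4 and 17.8 and 19.6 TPM in NT on IgG. These levels do not by themselves say how much protein is left.

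The 6 genes differed widely in level, in TPM and so per transcript length. MFNG was the most abundant, with a mean of 109.7 TPM over the 12 libraries, above 89.4% of the 13299 genes tested. POFUT1 followed with 53.6 TPM, then EOGT with 25.2 TPM, RFNG with 19.5 TPM, POGLUT1 with 10.1 TPM and LFNG with 8.07 TPM, the last above 36.8% of genes. They also differed in how far they moved: the highest library stood 5.39-fold above the lowest for MFNG and 4.30-fold for LFNG, but only 1.39-fold for POFUT1. EOGT spanned 2.24-fold, POGLUT1 1.59-fold and RFNG 1.57-fold. The order of the members was not the same in every group, since MFNG had the highest mean in 5 of the 6 groups and fell below POFUT1 and EOGT in NT cells on DLL4.

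**Figure D1:**
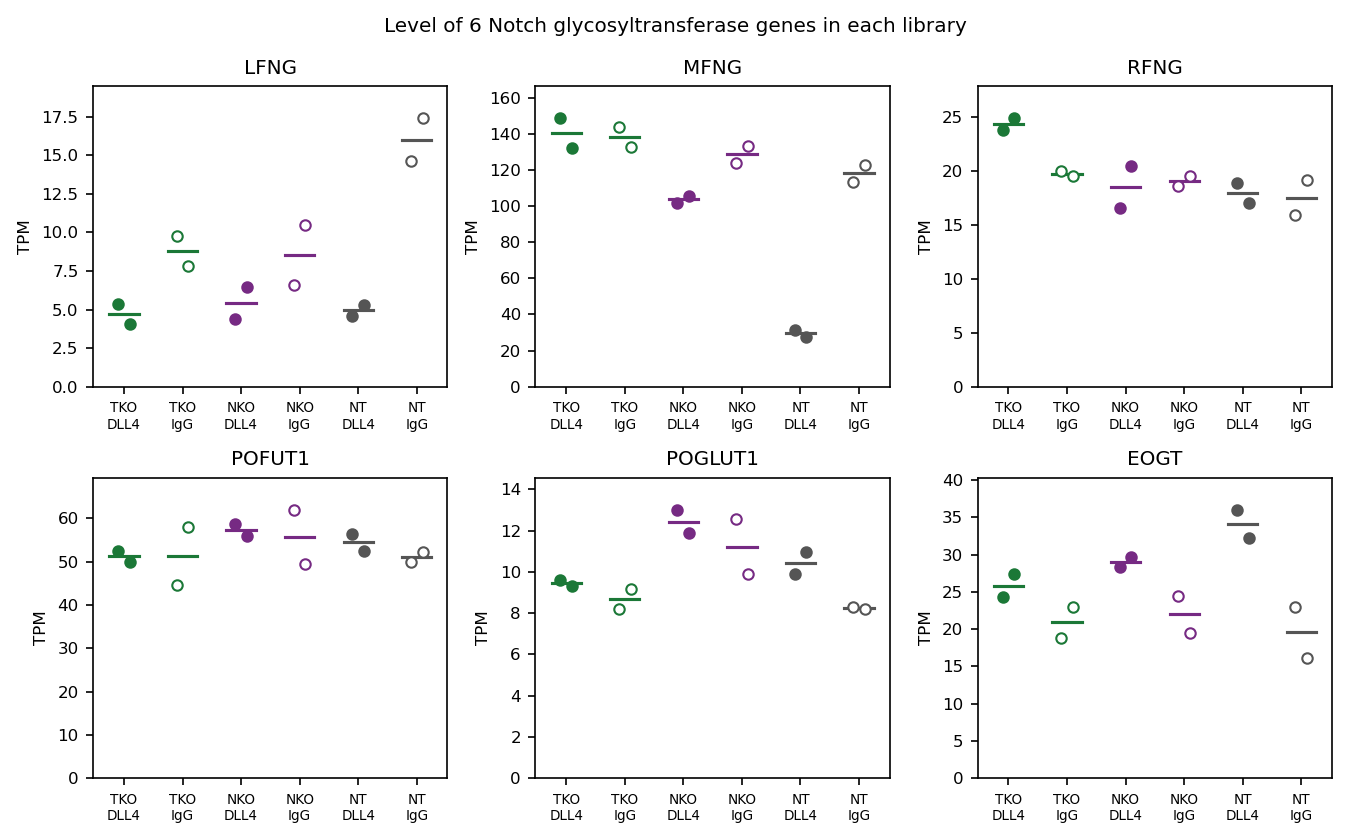
Level of each gene in TPM (vertical axes, from 0) in the 12 libraries, with the 6 groups along the horizontal axes, 1 point per library (filled on DLL4, open on IgG) and a line at the group mean. MFNG is low in the 2 libraries of NT on DLL4 (31.5 and 27.6 TPM) and between 102 and 149 TPM in the other 10, while LFNG is high in NT on IgG (14.6 and 17.4 TPM) and POFUT1 keeps to 44.7 to 62.0 TPM.

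MFNG, manic fringe, fell 4.00-fold in NT cells on DLL4 and did not pass the test in either edited line. In NT cells it had 31.5 and 27.6 TPM on DLL4, against 113 and 123 TPM on IgG. In NKO cells it had 102 and 106 TPM on DLL4, against 124 and 133 TPM on IgG, so that the NKO libraries on DLL4 lie below those on IgG without overlap. In TKO cells it had 149 and 132 TPM on DLL4, against 144 and 133 TPM on IgG, and the libraries overlap. On the scale of log2(TPM + 1) the difference between DLL4 and IgG was -1.96 ± 0.09 in NT (standard error of the fit, limma, adjusted p = 6.2e-07). It was 0.02 in TKO (95% interval -0.19 to 0.23, adjusted p = 0.95) and -0.31 in NKO (-0.52 to -0.10, adjusted p = 0.25). By p-value MFNG ranked at place 9 of 13299 genes in NT, and by size at place 62.

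The response of MFNG to DLL4 differed between lines by a test of the difference itself. Against NT, the response was 1.99 ± 0.13 log2 units higher in TKO (95% interval 1.69 to 2.28, limma adjusted p = 2e-04) and 1.65 ± 0.13 higher in NKO (1.36 to 1.95, adjusted p = 4e-04). By p-value MFNG ranked at place 1 of 13299 genes in the first of these tests and at place 3 in the second. Few genes passed them: 0.526% of all genes for TKO and 0.887% for NKO, against 1 of the 6 genes in each. On DLL4, MFNG stood at 140.3 ± 11.7 TPM in TKO and at 104 ± 2.84 TPM in NKO, against 29.5 ± 2.80 TPM in NT (SD, n = 2 each), which is 4.75-fold higher in TKO and 3.51-fold higher in NKO. The fitted differences were 2.21 ± 0.09 (adjusted p = 7.5e-08) and 1.78 ± 0.09 (adjusted p = 1.1e-06). On IgG the lines lay closer, at 138 ± 7.85 TPM in TKO and 129 ± 6.67 TPM in NKO, against 118 ± 6.90 TPM in NT, and neither difference passed (adjusted p = 0.1 and 0.43). The difference in TKO and NKO on DLL4, the response in NT and both differences of response all use the same 2 libraries of NT on DLL4, so they are not separate observations. Without each library in turn the NT response kept between -2.06 and -1.87, the TKO difference of response between 1.89 and 2.08 and the NKO difference between 1.56 and 1.75, and each passed every time.

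LFNG, lunatic fringe, fell in NT cells on DLL4 and stood lower in both edited lines than in NT on IgG. In NT cells it had 4.61 and 5.27 TPM on DLL4, against 14.6 and 17.4 TPM on IgG, a 3.24-fold fall with no overlap. In TKO cells it had 5.38 and 4.04 TPM on DLL4, against 9.76 and 7.80 TPM on IgG. In NKO cells it had 4.38 and 6.45 TPM on DLL4, against 6.62 and 10.5 TPM on IgG. In each line both libraries on DLL4 lay below both on IgG, in NKO narrowly. The log2 difference was -1.51 ± 0.23 in NT (limma, adjusted p = 0.0014), -0.78 in TKO (95% interval -1.28 to -0.28, adjusted p = 0.07) and -0.56 in NKO (-1.06 to -0.07, adjusted p = 0.46). Without the rows with a mean below 5 TPM the TKO value had an adjusted p of 0.0498. The responses of the lines were not separated by the test of the difference: 0.74 for TKO minus NT (0.03 to 1.44, adjusted p = 0.3) and 0.95 for NKO minus NT (0.25 to 1.65, adjusted p = 0.22).

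On DLL4 the 3 lines had like levels of LFNG, with 4.71 ± 0.945 TPM in TKO and 5.41 ± 1.46 TPM in NKO, against 4.94 ± 0.465 TPM in NT (SD, n = 2 each). The intervals of these log2 differences, -0.56 to 0.43 for TKO and -0.41 to 0.59 for NKO, hold differences of either sign. On IgG the lines parted, with 8.78 ± 1.38 TPM in TKO and 8.56 ± 2.73 TPM in NKO, against 16.0 ± 1.95 TPM in NT. These differences were -0.80 ± 0.23 for TKO (limma, adjusted p = 0.022) and -0.86 ± 0.23 for NKO (adjusted p = 0.035). The TKO call was lost without NT IgG library 2 (adjusted p = 0.0518), NT IgG library 3 (0.139) or TKO IgG library 3 (0.14). The NKO call was lost without NT IgG library 2 (0.0854), NT IgG library 3 (0.207) or NKO IgG library 1 (0.237). Both comparisons and the NT response use the same 2 libraries of NT on IgG.

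RFNG, radical fringe, moved little. Its 12 values lay between 15.9 and 24.9 TPM, and the highest were the 2 libraries of TKO on DLL4, with 23.7 and 24.9 TPM. It had 19.9 and 19.5 TPM in TKO on IgG, 16.6 and 20.5 TPM in NKO on DLL4 and 18.6 and 19.5 TPM in NKO on IgG, against 18.9 and 17.0 TPM in NT on DLL4 and 15.9 and 19.2 TPM in NT on IgG. Of its tests only TKO against NT on DLL4 passed, at 24.3 ± 0.800 TPM in TKO against 17.9 ± 1.35 TPM in NT, a log2 difference of 0.42 ± 0.12 (limma, adjusted p = 0.028). That call was lost without any 1 of its 4 libraries, with adjusted p from 0.0519 to 0.17. The exons of RFNG share 835 of 3865 bases with GPS1 on the opposite strand, and whether the counting used strand is not given in the sources used here. GPS1 itself differed by 0.04 in that comparison.

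**Figure D2:**
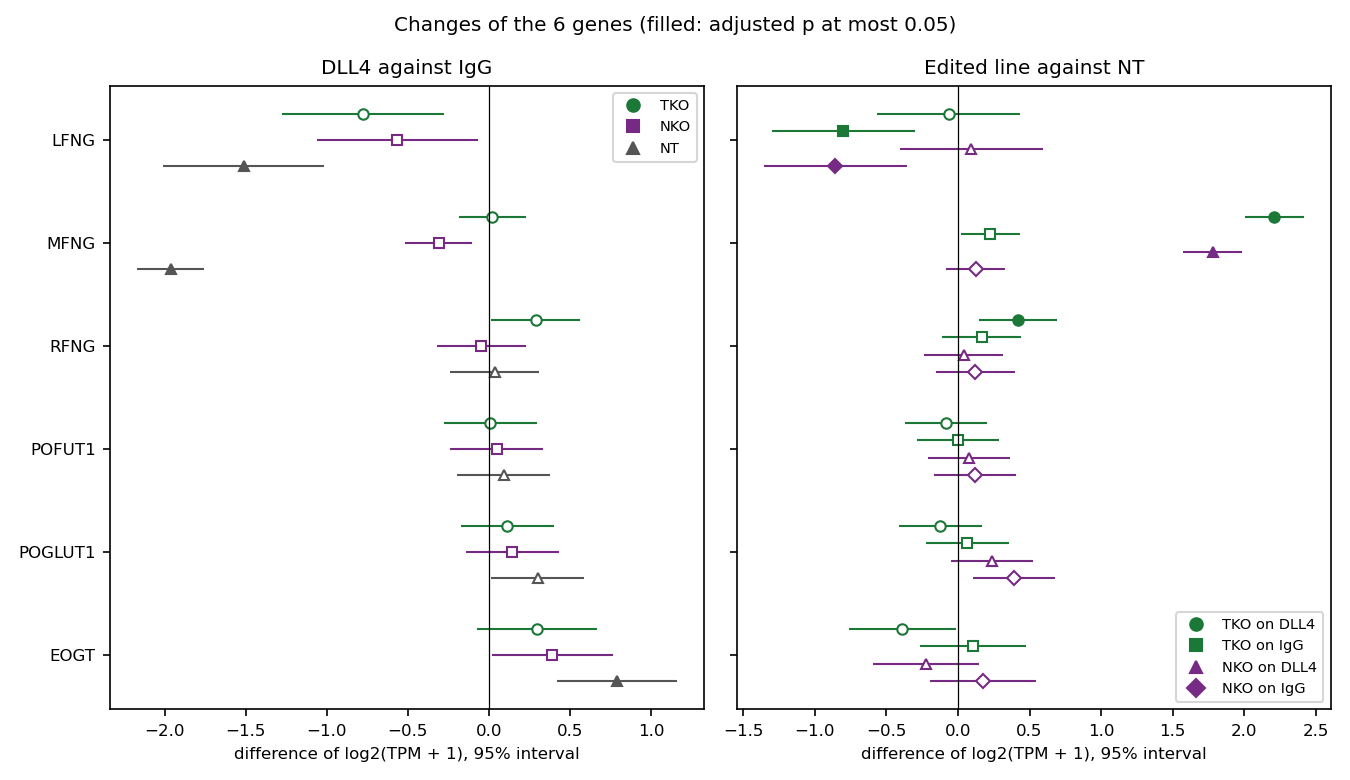
Fitted difference of log2(TPM + 1) (horizontal axes) with its 95% interval for the 6 genes, for DLL4 against IgG in each line (left) and for each edited line against NT on each coating (right). Filled symbols passed the test: on the left LFNG, MFNG and EOGT in NT, and on the right MFNG in TKO (2.21) and NKO (1.78) and RFNG in TKO on DLL4, and LFNG in TKO and NKO on IgG.

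Summed over the 3 Fringe genes, which catalyse the same sugar transfer, the mRNA of NT cells on DLL4 stood apart from that of the other 5 groups. The sum was 52.4 ± 3.68 TPM in NT on DLL4, against 152 ± 11.2 TPM in NT on IgG (SD, n = 2 each). In TKO it was 169 ± 11.9 TPM on DLL4, against 167 ± 9.55 TPM on IgG, and in NKO it was 128 ± 7.07 TPM on DLL4, against 156 ± 10.1 TPM on IgG. The composition changed too. MFNG made up 56.3 ± 1.38% of the sum in NT on DLL4, against 77.9 ± 1.20% in NT on IgG, and between 81.3% and 82.9% on average in the 4 groups of the edited lines. RFNG, which hardly moved itself, made up 34.2% in NT on DLL4, against 11.5% in NT on IgG, and 14.4% in TKO on DLL4. LFNG made up 9.48% in NT on DLL4, against 10.5% in NT on IgG. It made up 2.77% in TKO on DLL4, against 5.26% on IgG, and 4.22% in NKO on DLL4, against 5.43% on IgG. The ratio of MFNG to LFNG ran from 5.23 to 6.83 in NT on DLL4, against 7.07 and 7.73 in NT on IgG. In TKO it was 27.6 and 32.6 on DLL4, against 14.7 and 17.0 on IgG. In NKO it was 16.4 and 23.2 on DLL4, against 12.7 and 18.7 on IgG, and the coatings overlap. The ratio was thus higher in both edited lines than in NT on IgG as well. The smallest two-sided p that an exact permutation test of a sum or share can give at this size is 0.333, so none was run.

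**Figure D3:**
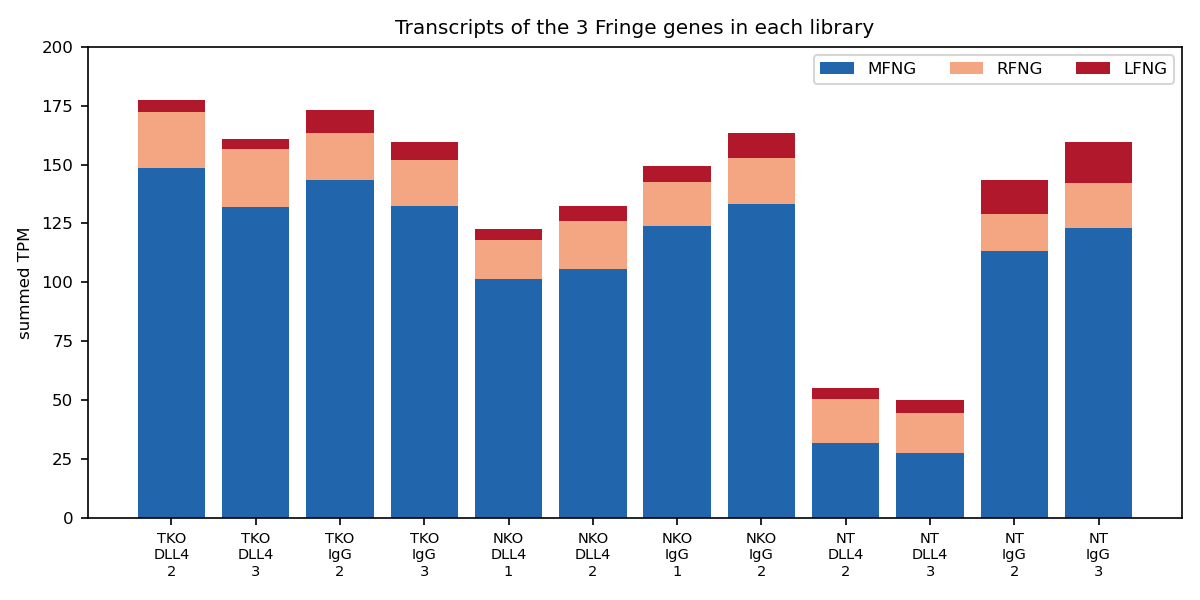
Summed TPM of MFNG, RFNG and LFNG (vertical axis, from 0) in each of the 12 libraries, with 1 stacked bar per library. The 2 bars of NT on DLL4 are the shortest, and there the MFNG share averaged 56.3%, against 77.9% in NT on IgG.

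EOGT, which adds N-acetylglucosamine directly to EGF repeats, was the 1 member of the 6 that passed the test as higher in NT cells on DLL4. It had 36.0 and 32.2 TPM on DLL4, against 23.0 and 16.1 TPM on IgG, a 1.74-fold rise with no overlap. In TKO it had 24.3 and 27.3 TPM on DLL4, against 18.8 and 22.9 TPM on IgG. In NKO it had 28.3 and 29.7 TPM on DLL4, against 24.5 and 19.5 TPM on IgG. In all 3 lines the DLL4 libraries lay above the IgG libraries. With 2 libraries against 2, an exact permutation test gives no two-sided p below 0.333. The share of all genes so separated was not counted. The log2 difference was 0.79 ± 0.17 in NT (limma, adjusted p = 0.0099), 0.30 in TKO (95% interval -0.07 to 0.67, adjusted p = 0.38) and 0.39 in NKO (0.02 to 0.76, adjusted p = 0.51). The NT call was lost without NT IgG library 3 (0.54, adjusted p = 0.0885) or NT DLL4 library 2 (0.71, adjusted p = 0.0719). The responses of TKO and NKO differed from that of NT by -0.49 (adjusted p = 0.35) and -0.40 (adjusted p = 0.53). On DLL4 EOGT averaged 25.8 ± 2.14 TPM in TKO and 28.999 ± 0.975 TPM in NKO, against 34.1 ± 2.72 TPM in NT (SD, n = 2 each), and neither difference passed (adjusted p = 0.12 and 0.39). The TKO difference of -0.39 did pass under quantile normalisation (-0.47, adjusted p = 0.0404) and in a fit of only the 4 libraries compared (adjusted p = 0.026).

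POFUT1, the enzyme that lays down the fucose on which all 3 Fringe enzymes act, was the steadiest of the 6. It had 52.5 and 50.02 TPM in TKO on DLL4, 44.7 and 58.1 TPM in TKO on IgG, 58.8 and 56.05 TPM in NKO on DLL4 and 62.0 and 49.6 TPM in NKO on IgG, against 56.5 and 52.5 TPM in NT on DLL4 and 49.95 and 52.2 TPM in NT on IgG. Every group overlapped with some other group, though in NT both libraries on DLL4 lay above both on IgG, narrowly. Its 7 log2 differences between coatings or lines lay between -0.09 and 0.12, and their 95% intervals between -0.37 and 0.40, so a change larger than that lies outside them.

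POGLUT1, the O-glucosyltransferase, passed no test. It had 9.62 and 9.32 TPM in TKO on DLL4, 8.20 and 9.18 TPM in TKO on IgG, 13.0 and 11.9 TPM in NKO on DLL4 and 12.5 and 9.89 TPM in NKO on IgG, against 9.87 and 10.95 TPM in NT on DLL4 and 8.31 and 8.20 TPM in NT on IgG. The NKO libraries lay above those of NT on both coatings, with log2 differences of 0.24 on DLL4 (limma, adjusted p = 0.24) and 0.39 on IgG (95% interval 0.10 to 0.68, adjusted p = 0.085). In NT its difference between DLL4 and IgG was 0.30 (0.01 to 0.59, adjusted p = 0.15).

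Counted over the 6 genes, 3 passed the test for DLL4 against IgG in NT (EOGT higher, LFNG and MFNG lower), where 16.0% of all 13299 genes passed. None passed in TKO, where 6.51% of all genes did, and none in NKO, where 0.782% did; at an unadjusted p below 0.05 in the limma fit, 2 of the 6 passed in TKO and 3 in NKO. For TKO against NT, 2 passed on DLL4 (MFNG and RFNG, both higher) and 1 on IgG (LFNG, lower), where 26.6% and 27.6% of all genes passed, shares of the size seen among the 6. For NKO against NT, 1 passed on DLL4 (MFNG, higher) and 1 on IgG (LFNG, lower), where 20.7% and 10.7% of all genes passed. The median log2 difference of the 6 genes was 0.06 in NT for DLL4 against IgG, beside 0.01 for all genes, and lay between -0.08 and 0.12 in the other 6 comparisons of coatings or lines. The 6 did not move as 1 block: the median hides 2 genes that passed as lower and 1 that passed as higher in NT.

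The genes beside the members on the chromosome had small median differences, with single exceptions. Of 10 tested genes on each side of MFNG, the median log2 difference on DLL4 was 0.17 for TKO against NT and 0.11 for NKO against NT, beside 2.21 and 1.78 for MFNG itself. The median of chromosome 22 was 0.02 in both. Single neighbours of MFNG ranged from -1.05 to 1.70 in TKO and from -0.47 to 0.71 in NKO. For DLL4 against IgG in NT the neighbours of MFNG had a median of -0.15 and ranged from -1.35 to 0.34. The lowest was CYTH4, the gene next to MFNG in this order, with -1.35 in NT, beside -1.25 in TKO and -0.87 in NKO, and RAC2, the gene after it, had -0.50 in NT. In the same comparison the neighbours of LFNG had a median of -0.04 and ranged from -0.54 to 0.87, and those of EOGT had a median of 0.10 and ranged from -1.53 to 0.79, the highest being PRICKLE2, about as high as EOGT itself. These neighbours are named after their values were seen.

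Ligands that Fringe is known to sort moved in the same cells. Of 5 Notch ligand genes in the list used, DLL4 and JAG1 rose in NT cells on the DLL4 coating and the other 3 did not pass. The mRNA of DLL4 had 45.6 and 40.7 TPM in NT on DLL4, against 5.09 and 5.41 TPM in NT on IgG. In TKO it had 59.1 and 62.6 TPM on DLL4, against 13.2 and 16.4 TPM on IgG, and in NKO 9.75 and 11.9 TPM on DLL4, against 5.33 and 5.63 TPM on IgG. DLL4 thus rose in all 3 lines, by 2.82 in NT (limma, adjusted p = 6.2e-07), 1.97 in TKO (1.3e-05) and 0.86 in NKO (0.011), the last lost without either of 2 libraries. JAG1 had 82.96 and 70.2 TPM in NT on DLL4, against 42.9 and 44.6 TPM in NT on IgG (0.79, adjusted p = 0.01, lost without any 1 of 3 libraries). On DLL4 JAG1 had 27.5 and 24.95 TPM in TKO and 39.6 and 37.8 TPM in NKO, log2 differences from NT of -1.51 (adjusted p = 6.1e-05) and -0.96 (adjusted p = 0.0027). Over the 5 ligand genes, 2 were higher and 1 lower in TKO than in NT on DLL4, where 26.6% of all genes passed. In NKO 1 was higher and 3 lower, where 20.7% passed. JAG2, the other Jagged ligand, went the other way from JAG1, with 0.70 in TKO and 1.01 in NKO. The first of these calls was lost without any 1 of 4 libraries and the second without either of 2. The mRNA of DLL4 differed from NT there by 0.49 in TKO and by -1.90 in NKO. In NT cells on DLL4 the Fringe sum was at its lowest of the 6 groups and JAG1 at its highest. A relation between them was not tested. Of the 5 genes HES1, HES4, HEY1, HEY2 and NRARP, used as a check of Notch activity, 4 rose on DLL4 in NT, 5 in TKO and 3 in NKO. Of all genes 16.0%, 6.51% and 0.782% passed there. HEY1 and NRARP in TKO were lost without any 1 of 3 libraries and HEY2 in NKO without any 1 of 4. On DLL4, 2 of the 5 were lower in TKO than in NT and 4 lower in NKO, and 0 were higher, where 26.6% and 20.7% of all genes passed. HES1 in NKO was lost there without any 1 of 3 libraries. On IgG 1 was higher and 2 lower in TKO than in NT, where 27.6% of all genes passed. In NKO on IgG 0 were higher and 2 lower, where 10.7% did. HES1 in TKO differed from NT by -2.05 on IgG and by -0.62 on DLL4. By the difference of response from NT, 1 was higher and 1 lower in TKO (0.526% of all genes passed). In NKO 0 were higher and 2 lower (0.887%). The higher one in TKO, HES1, was lost without 1 of 8 libraries. HES4, lower in NKO, was lost without any 1 of 4 of the 8.

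Other enzymes that build sugars on EGF repeats were taken as a list of 6: POGLUT2 and POGLUT3, which add O-glucose at other sites, GXYLT1, GXYLT2 and XXYLT1, which extend O-glucose with xylose, and B4GALT1, a galactosyltransferase that can extend the chain Fringe starts. GXYLT2 had at most 0.19 TPM and was not tested. Of the other 5, 2 rose in NT on DLL4, where 16.0% of all genes passed, and 1 rose in TKO on DLL4, where 6.51% did. None passed in NKO on DLL4, where 0.782% of all genes did. At the looser threshold of an unadjusted limma p below 0.05, 1 of the 5 passed there. The share of all genes at that threshold was not counted. Against NT, 2 were higher and 2 lower in TKO on DLL4 and 1 higher and 1 lower in TKO on IgG, while 3 were higher in NKO on each coating. The shares of all genes that passed were 26.6% and 27.6% in TKO and 20.7% and 10.7% in NKO, on DLL4 and on IgG in that order, and 5 genes are too few to set a share against them. The largest change was that of POGLUT3, listed under its older symbol KDELC2. It had 60.2 and 57.4 TPM in TKO on DLL4 and 39.7 and 37.5 TPM in NKO on DLL4, against 18.2 and 17.3 TPM in NT on DLL4. On IgG it had 50.7 and 61.0 TPM in TKO and 38.8 and 31.2 TPM in NKO, against 11.7 and 10.4 TPM in NT. No library of an edited line overlapped with NT, and the log2 differences were 1.68 in TKO and 1.08 in NKO on DLL4 (limma, adjusted p = 2.8e-06 and 0.00016) and 2.23 in TKO and 1.57 in NKO on IgG (4.2e-07 and 1.7e-05). Here the neighbours moved as well. Of the 20 tested genes around POGLUT3 on chromosome 11, 18 were at least 0.5 higher in TKO than in NT on either coating, with medians of 1.22 on DLL4 and 1.20 on IgG. In NKO 15 were so on DLL4 and 14 on IgG, with medians of 1.03 and 0.88. The whole chromosome had medians of 0.54 and 0.51 in TKO and 0.06 and 0.05 in NKO. The difference of POGLUT3 thus stands in a stretch of genes that were higher together, and a property of that stretch and one of the gene cannot be told apart.

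**Figure D4:**
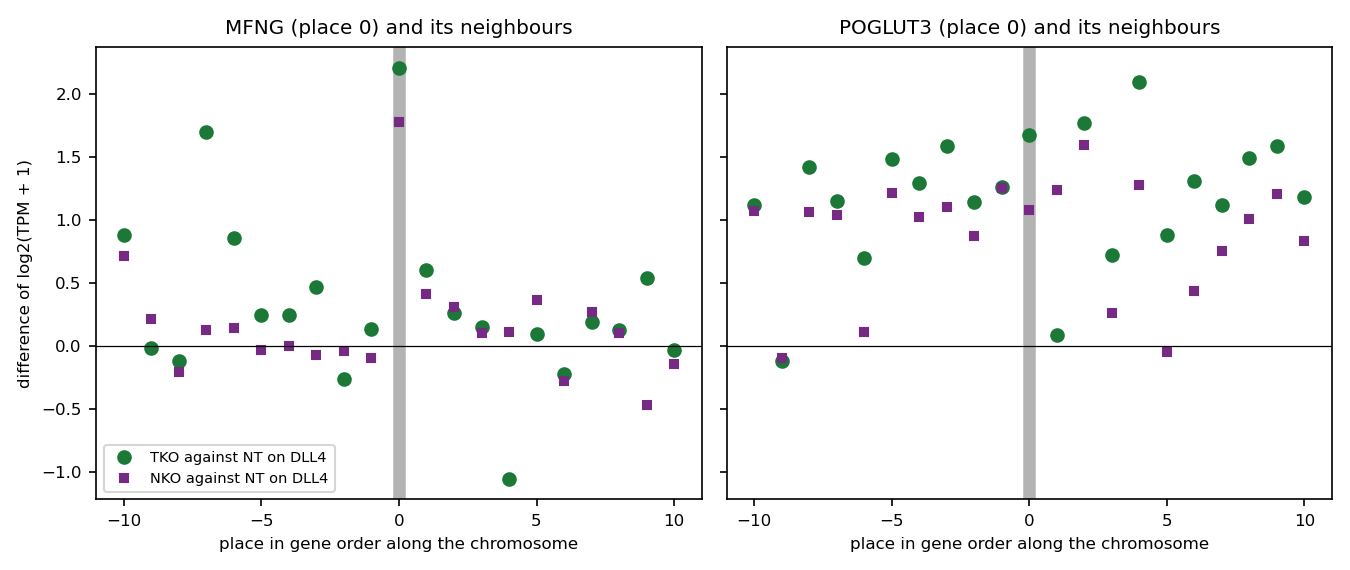
Difference of log2(TPM + 1) on DLL4 (vertical axis) for TKO (circles) and NKO (squares) against NT, for MFNG (left) and POGLUT3 (right) at place 0 and the 10 tested genes on each side in gene order (horizontal axis). MFNG stands above its 20 neighbours in both lines; their median in TKO is 0.17, while 18 of the 20 neighbours of POGLUT3 are at least 0.5 higher in TKO.

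POGLUT2, listed as KDELC1, was lower in TKO, with a mean of 14.2 TPM on DLL4 and 12.7 TPM on IgG, against 24.9 TPM in NT on DLL4 and 26.7 TPM in NT on IgG. Its log2 differences were -0.77 on DLL4 (limma, adjusted p = 0.00059) and -1.004 on IgG (adjusted p = 0.00012), and both passed without each library in turn. XXYLT1 rose in TKO on DLL4 by 0.62 ± 0.08 (adjusted p = 0.0015). It also passed in NT on DLL4, with a rise of 0.28 that was lost without any 1 of 4 libraries. The 2 responses differed by 0.33, which did not pass. On DLL4 XXYLT1 was higher in TKO than in NT by 0.33, a call lost without either of 2 libraries. It was higher in NKO than in NT by 0.64 on DLL4 (adjusted p = 0.00041) and 0.72 on IgG (adjusted p = 0.00033). Its rise in TKO and its calls in NKO passed without each library in turn. B4GALT1 passed no test, with differences between -0.20 and 0.27. The calls of GXYLT1, with differences from NT of -0.42 in TKO on DLL4 and of 0.49 and 0.51 in NKO on DLL4 and on IgG, were each lost without 3 of the 4 libraries they rest on in turn.

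**Figure D5:**
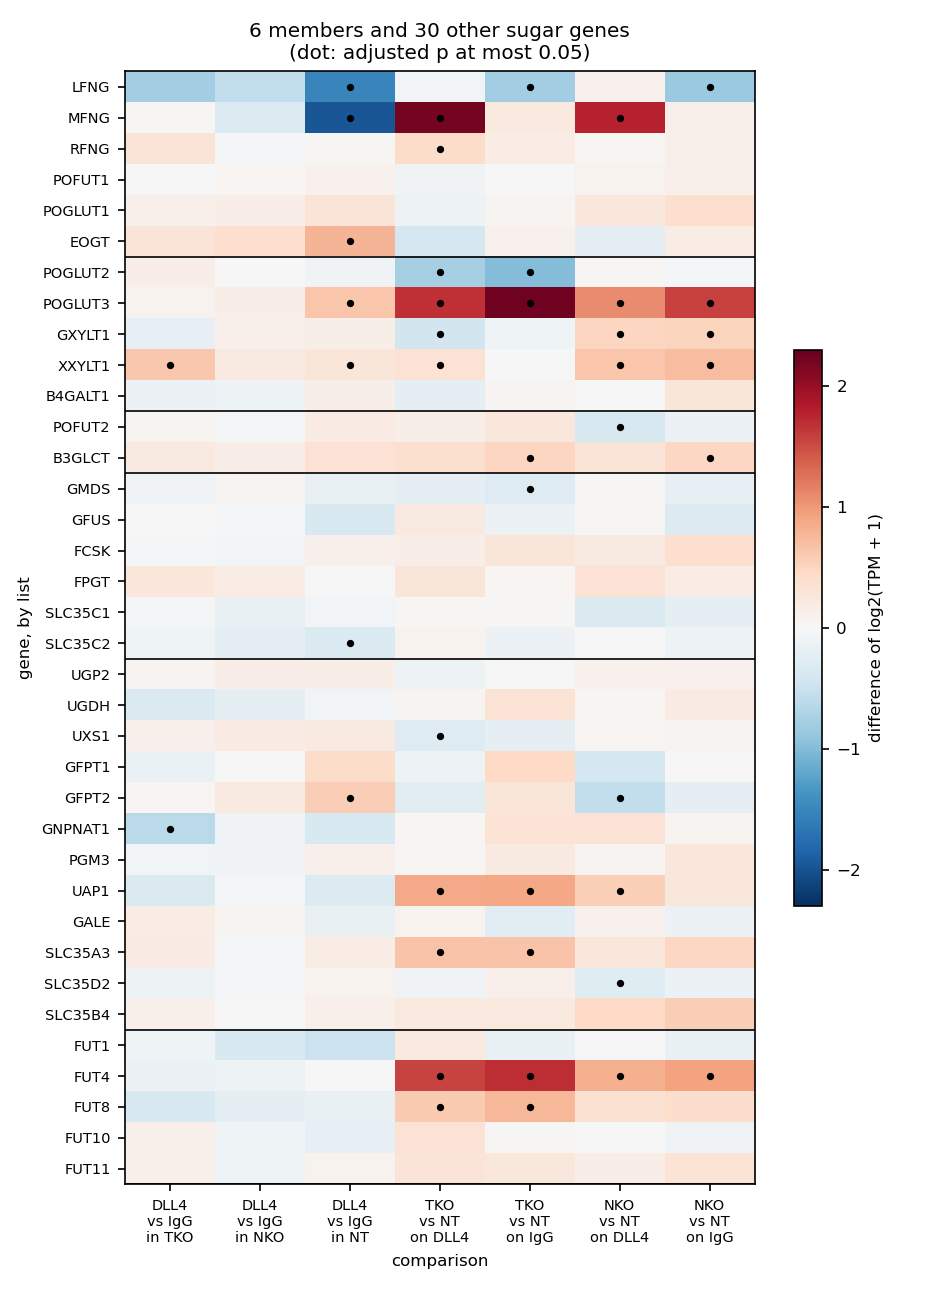
Difference of log2(TPM + 1) (colour) of the 6 genes and of 30 other genes of sugar transfer and sugar supply (rows, by list) in the 7 comparisons of coatings or lines (columns). A dot marks an adjusted p of at most 0.05: the NT column holds 3 dots among the 6 genes and 4 among the other 30, and MFNG (2.21) and POGLUT3 (1.68) are the darkest red cells among enzymes of EGF repeats for TKO on DLL4.

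For each of the 6 genes, the 3 genes with the most similar pattern were sought by Pearson's r of log2(TPM + 1) over the 12 libraries, among 9554 genes with a mean of at least 5 TPM. The 12 libraries share 6 groups, so these values describe likeness of group levels and carry no p. For MFNG they were CNPPD1 (0.966), FEN1 (0.963) and IMP3 (0.962). FEN1, a nuclease of DNA replication, averaged 53.8 TPM in NT on DLL4, against 90.6 TPM in NT on IgG, and 86.9 TPM in TKO and 85.7 TPM in NKO on DLL4. For LFNG they were TWF2 (0.960), PTPN7 (0.950) and CATSPER1 (0.936). PTPN7, a tyrosine phosphatase, averaged 1.81 TPM in NT on DLL4, against 17.4 TPM in NT on IgG. For EOGT they were IL13RA1 (0.952), ETV6 (0.9445) and TRAM1 (0.939). For RFNG they were CYHR1 (0.948), C8orf82 (0.926) and FAM72A (0.920), for POFUT1 PTCD3 (0.9505), G3BP2 (0.937) and MIER1 (0.929), and for POGLUT1 GLCE (0.9245), TNRC6A (0.923) and GCLC (0.916). No gene stood in more than 1 of these 6 sets of 3.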

How the data were processed

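Polyadenylated RNA of 12 TeloHAEC libraries was measured, 2 for each of 3 lines on each of 2 coatings. The authors deposited TPM per gene symbol, and per the submitters' processing notes kallisto, edgeR and the build hg38 were used. The sources used here give no versions, annotation or use of strand, and TPM keep no depth. Columns number the NT and TKO libraries 2 and 3 and the NKO libraries 1 and 2, while the labels number each group 1 and 2. The column numbers name libraries here, and columns were mapped to groups only.

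Genes with at least 1 TPM in at least 2 libraries were tested (13299) as log2(TPM + 1), with a pseudocount of 1 that understates changes of low genes. limma 3.58.1 in R 4.3.3 fitted 6 group means with a variance trend, leaving 6 residual degrees of freedom. Tests were two-sided, with Benjamini-Hochberg adjustment over all genes tested and a threshold of 0.05, and the script was tested on simulated data. Statements that the libraries of a pair of groups do not overlap are descriptions, and the share of all genes so separated was not counted. Positions came from GENCODE 29 and promoters from RefSeq (GRCh38.p14). Figures used matplotlib 3.10.9 in Python 3.11.15. The members and all gene lists were chosen with earlier results of these data known. Named besides the 6 genes were the targeted genes, 5 Notch targets, for each other list up to 4 genes of smallest p per comparison among those passing, and the 3 genes most similar to each member. B4GALT1 and GXYLT2 and the neighbours named were added after their values were seen. Each result was recomputed with 0.1 as pseudocount, without the filter, with genes kept from an average of 5 TPM, after rescaling by median of ratios, after quantile normalisation, with replicate number as a block, from the compared libraries alone, and with each library left out in turn.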

Additional observations from a re-analysis of the deposited data

Results flagged for a closer look

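The DLL4 response of MFNG differed between lines by a test of the difference itself, with each line's own control on IgG. For TKO minus NT the difference was 1.99 log2 units, from a response of 0.02 in TKO and of -1.96 in NT. For NKO minus NT it was 1.65, from a response of -0.31 in NKO. Both rest on the same 4 NT libraries. The effect of the line itself, as 1 edited line each, cannot be told apart from that of the edited gene.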

How the results depend on the processing

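Of 378 values of the 6 genes under 7 alternative settings, 370 kept their direction and side of the threshold, 4 no longer passed, 4 newly passed and none that passed in either setting changed sign. With no filter on low values the number of the 6 genes that passed was 0 for TKO against NT on IgG, 1 for TKO against NT on DLL4 and 0 for NKO against NT on IgG, since LFNG (adjusted p = 0.082 in TKO and 0.122 in NKO) and RFNG (0.0597) no longer did. With genes kept only from an average of 5 TPM it was 1 for DLL4 against IgG in TKO, LFNG. With the replicate number as a block it was also 1 there, LFNG with an adjusted p of 0.0116; the deviations of same-numbered libraries of the 2 coatings had a correlation of -0.000292 in NT and 0.0165 in TKO, but 0.279 in NKO, and the labels state no shared origin, so the block was kept as an alternative only. RFNG did not pass under quantile normalisation (0.0624). Without each library in turn the number that passed ran from 2 to 3 for DLL4 against IgG in NT, from 0 to 1 for TKO against NT on IgG, from 0 to 2 for NKO against NT on IgG and was 1 for TKO against NT on DLL4. POGLUT1 passed for NKO against NT on IgG without NKO IgG library 2 (0.55, adjusted p = 0.0313). Over all genes, the number passing for the difference in response between NKO and NT was 118, against 78 with no filter. That for TKO and NT was 70, against 108 with the 5 TPM filter and 141 under quantile normalisation. That for DLL4 against IgG in NKO was 104, against 53 in a fit of only the libraries compared. Without each library in turn the counts were 960 to 1213 of 2130 for DLL4 against IgG in NT, 307 to 547 of 866 in TKO and 37 to 86 of 104 in NKO, fits with fewer samples. They were 2298 to 2624 of 3543 for TKO against NT on DLL4 and 2430 to 3438 of 3666 on IgG, 1434 to 1810 of 2758 for NKO against NT on DLL4 and 664 to 1589 of 1418 on IgG, 13 to 76 of 70 for the difference in response of TKO and 30 to 76 of 118 for that of NKO. The cause of the other changes was not tested. The depth of the libraries is unknown.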

Other observations

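Some enzymes that supply the sugar donors, or that put fucose elsewhere, differed between lines, as a list about as often as all genes in TKO. Over 5 lists of sugar transfer and supply with 37 genes, 30 of them tested, 6 were higher and 3 lower in TKO than in NT on DLL4 and 6 higher and 2 lower on IgG, 30% and 26.7% of those tested, beside 26.6% and 27.6% of all genes. In NKO 5 were higher and 3 lower on DLL4 and 5 higher and none lower on IgG, 26.7% and 16.7%, beside 20.7% and 10.7% of all genes. For DLL4 against IgG, 3 rose and 1 fell in NT, 13.3%, beside 16.0% of all genes. UAP1, which makes the UDP-N-acetylglucosamine that Fringe and EOGT use, averaged 155 TPM in TKO on DLL4 and 195 TPM in TKO on IgG, against 84.9 TPM in NT on DLL4 and 105 TPM in NT on IgG. The log2 differences were 0.86 on DLL4 and 0.88 on IgG (limma, adjusted p = 0.00016 and 0.00017). FUT8, the core fucosyltransferase of N-glycans, was higher in TKO on IgG by 0.77 (adjusted p = 0.0011). GFPT2, an entry enzyme of the hexosamine pathway, rose in NT on DLL4 by 0.56 (adjusted p = 0.0042) and was lower in NKO than in NT on DLL4 by 0.57 log2 units (-0.57, adjusted p = 0.0028). These calls of UAP1, FUT8 and GFPT2 passed without each library in turn. Of 36 calls in these lists 20 did not.

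FUT4, a fucosyltransferase of the Lewis antigens on chromosome 11 from 94543840 to 94549898, averaged 5.34 TPM in TKO and 2.77 TPM in NKO on DLL4, against 1.15 TPM in NT on DLL4. On IgG it averaged 5.95 TPM in TKO and 3.08 TPM in NKO, against 1.16 TPM in NT. The log2 differences on DLL4 were 1.56 in TKO and 0.81 in NKO (limma, adjusted p = 7.1e-05 and 0.0087), and the NKO call was lost without either of 2 libraries (highest adjusted p 0.0544). The 20 genes around FUT4 had medians of 0.45 in TKO and 0.17 in NKO on DLL4. Its exons share 11.3% of their bases with PIWIL4 on the same strand and 10.8% with an antisense gene, so the split of reads among them is uncertain.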
